A study of Caenorhabditis elegans with 4 samples.

Results

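The 10 genes described here encode Argonaute proteins of Caenorhabditis elegans, and they were chosen by symbol from a list spanning the small RNA pathways of the soma, the sperm line and the oocyte line. All 10 were measured, on 13 of the 21632 probes of the array, and they are 10 of 14901 named genes tested. Wild-type worms at L4, the last larval stage, were measured as 4 RNA preparations, each in channel 2 of an array with wild-type mixed reference RNA in channel 1. No gene deletion, transgene or treatment is given for either RNA. The labels do not say which stages the mixed reference holds or whether the 4 preparations came from separate cultures.

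Argonautes are the proteins that hold a small RNA and use it to find matching transcripts. In the worm, ALG-1 and ALG-2 hold microRNAs. RDE-1 holds small RNAs cut from foreign double-stranded RNA, ERGO-1 and the pair ALG-3 and ALG-4 hold small RNAs of the oocyte and embryo and of the developing sperm, and PRG-1, the PIWI protein, holds piRNAs. Small RNAs made afterwards by RNA-dependent RNA polymerases are held by CSR-1 and by the worm-specific Argonautes, such as WAGO-1 in germ granules and HRDE-1 in germline nuclei. L4 is the stage at which the hermaphrodite germline makes its sperm, before it turns to oocytes.

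Each value is a log2 ratio between the channels of an array, centred on that array's median. Which channel stands on top of the ratio is not recorded. Positive values were read as L4 over reference, the order in which the labels name the RNAs, so "higher" and "lower" are likely rather than certain directions throughout. In whole worms, a difference in the number of cells of a type and a difference in RNA per cell cannot be told apart, and a ratio to mixed RNA gives no absolute level.

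Values were present for 21084 to 21489 probes per array, and log2 ratios had an SD of 0.85 to 1.21 within an array. The arrays correlated at r = 0.56 to 0.72 over probes. Of 60 sperm genes tested, 54 were higher and 0 lower, and of 33 oocyte, eggshell and yolk genes, 14 were lower and 0 higher. Over all named genes, 13.4% were higher and 9.66% lower. These lists were chosen with earlier results of these data known, and the direction of the ratio is not recorded. The counts are therefore no independent check of the stage. Of 34 general germline genes (stem cell, meiosis and germ granule), 1 was higher and 0 lower. Sperm gene medians were 2.91, 3.35, 2.03 and 1.18 in preparations 1 to 4 over the 57 genes with a value on all 4 arrays, and oocyte medians were -0.93, -0.032, -2.58 and -2.35 over 32 such genes. The preparations thus differed among themselves in their sperm and oocyte gene ratios.

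Among the 10 Argonaute genes, alg-3 and alg-4 were higher in L4 and hrde-1 was lower, and 7 did not pass the threshold (limma, adjusted p under 0.05 over all 19911 probes and genes tested). For alg-4 this is the average of 2 probes that gave unlike values. The background over named genes was 13.4% higher and 9.66% lower, so 2 and 1 of 10 are close to it. The median of the 10 means was 0.0065, against 0.045 over all named genes. Before adjustment, 4 of the 10 had a limma p under 0.05, the fourth being alg-2, beside 5750 of all 14901 named genes. Without preparation 1, 3 or 4 the number lower was 0, and with housekeeping centring 1 was higher and 0 lower.

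**Figure D1:**
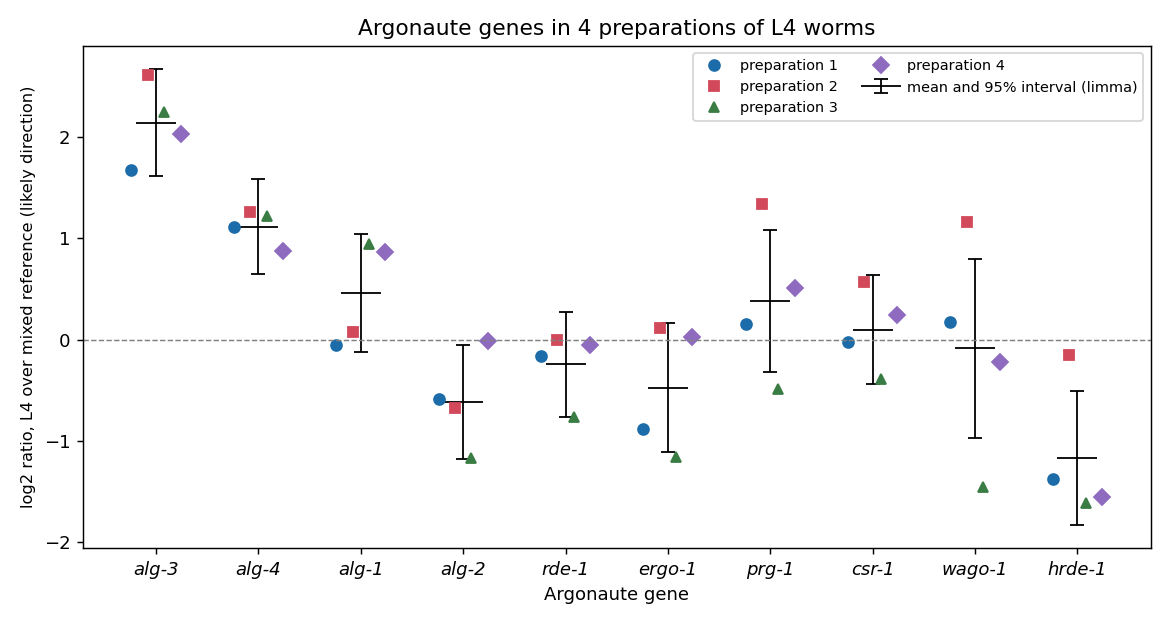
Log2 ratio of L4 over the mixed reference for each of the 10 Argonaute genes, with a marker for each of the 4 preparations and a bar for the mean and limma's 95% interval. The 4 values of alg-3 lie between 1.68 and 2.61, clear of those of the other genes as plotted. Here alg-4 is the average of 2 unlike probes, and its probe 2 lay above alg-3 on every array. Values of alg-1, ergo-1, prg-1, csr-1 and wago-1 lie on both sides of 0.

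The sperm Argonaute gene alg-3 (T22B3.2) had the highest ratio of the 10 when the 2 probes of alg-4 were averaged. The log2 ratio of alg-3 was 1.68, 2.61, 2.25 and 2.03 in preparations 1 to 4. All 4 values were well above 0, and on each array the gene stood above at least 93.9% of named genes. The mean was 2.14 ± 0.23 (SE, n = 4; SD 0.39), a 4.42-fold difference, with a limma adjusted p of 0.000964 and a 95% interval of 1.61 to 2.67. Over the 9 alternatives to the processing the mean stayed between 1.99 and 2.30, with an adjusted p of at most 0.0138 in limma. The sperm gene list moved with it, 54 of 60 being higher, but not in the same order of arrays: alg-3 was lowest in preparation 1, the sperm median in preparation 4. The part of sperm content in the alg-3 ratio was not tested.

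The 2 probes of its paralog alg-4 (ZK757.3), which acts with alg-3 in the sperm line, did not give the same result. Averaged over probes, alg-4 was at 1.11, 1.26, 1.22 and 0.88 in preparations 1 to 4, with a mean of 1.12 ± 0.21 (SE, n = 4) and a limma adjusted p of 0.00732. With each array centred on housekeeping genes that adjusted p was 0.051 in limma, which misses the threshold. The low SD of 0.17 of the averaged values, smaller than in all but 4.89% of named genes, belongs to an average of unlike probes.

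Probe 2 of alg-4 gave 2.47, 3.15, 2.37 and 2.06 in preparations 1 to 4. These values resemble those of alg-3, with all 4 above 2. The mean was 2.51 ± 0.24 (SE, n = 4), a 5.71-fold difference, and its adjusted p in limma with each probe tested singly was 0.00078. Probe 1 of alg-4 gave -0.25, -0.63, 0.064 and -0.31 on the same arrays. It was below 0 on 3 of 4 arrays, with a mean of -0.28 ± 0.22 and an adjusted p of 0.378 in limma. The 2 sets of values did not overlap. With probes tested singly, 22.7% of the probes of named genes were called and 13.2% were called higher.

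The difference between the alg-4 probes, probe 2 over probe 1, was 2.72, 3.78, 2.31 and 2.37 on the log2 scale in preparations 1 to 4. Its mean was 2.80 (SD 0.68). Of the 1286 genes with 2 probes and values on all 4 arrays, 16 differed by at least this much in size, alg-4 included, and the median was 0.26. The platform annotation assigns both probes to the same gene and transcripts. Which probe reports alg-4, and whether probe 2 also binds alg-3 RNA, was not tested. Set against alg-3, probe 2 was higher on all 4 arrays, by 0.027 to 0.79, and probe 1 was lower by 1.93 to 3.24.

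**Figure D2:**
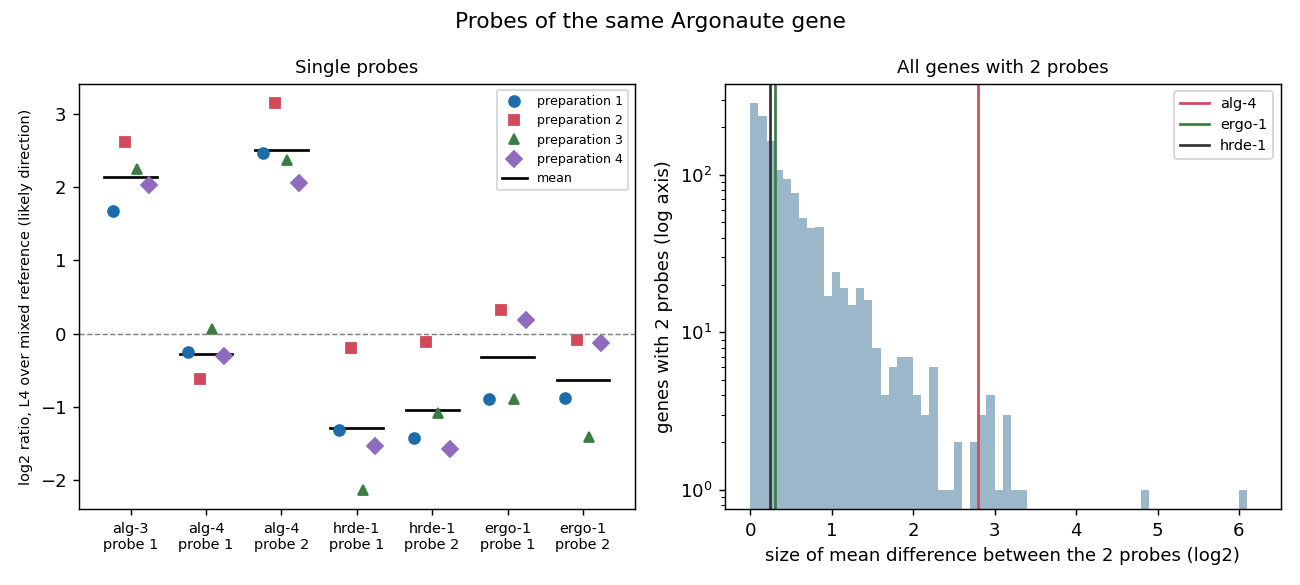
Left, log2 ratio of L4 over the mixed reference for each probe of alg-3, alg-4, hrde-1 and ergo-1, with a marker per preparation and a line at the mean. Right, the number of genes (log axis) by the size of the mean difference between their 2 probes, with lines at 2.80 for alg-4, 0.31 for ergo-1 and 0.25 for hrde-1, of which only the first lies in the tail.

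The microRNA Argonaute genes alg-1 and alg-2, close paralogs with overlapping roles in developmental timing, lay on either side of 0 and did not pass the threshold. For alg-1 (F48F7.1) the log2 ratio was -0.056, 0.073, 0.95 and 0.87 in preparations 1 to 4. Preparations 3 and 4 were thus higher and the other two near 0. The mean was 0.46 ± 0.25 (SE, n = 4), with a 95% interval of -0.13 to 1.04 and a limma adjusted p of 0.227. Without preparation 3 the mean was 0.29. For alg-2 (T07D3.7) the values were -0.59, -0.68, -1.17 and -0.012. All 4 were below 0, the last only just. The mean was -0.61 ± 0.24, with an interval of -1.18 to -0.049 before adjustment over all genes and a limma adjusted p of 0.11.

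On every array alg-1 had a higher ratio than alg-2, by 0.53, 0.75, 2.11 and 0.88 in preparations 1 to 4. The mean difference in log2 ratio was 1.07 (SD 0.71), larger than its spread, and preparation 3 contributed the most to it. The sperm gene alg-3 was above alg-1 on all 4 arrays, by 1.69 on average (SD 0.62). No test was made of such differences, which are given as values.

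Neither rde-1 nor ergo-1, the Argonautes that act first in silencing by foreign and by certain internal double-stranded RNAs, passed the threshold. The gene rde-1 (K08H10.7) was at -0.16, -0.0043, -0.76 and -0.053 in preparations 1 to 4. All 4 values were below 0, with preparation 2 at 0 within rounding and preparation 3 the lowest. The mean was -0.24 ± 0.22 (SE, n = 4; limma adjusted p = 0.462), with a 95% interval of -0.76 to 0.27. Without preparation 3 the mean was -0.072.

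For ergo-1 (R09A1.1), which is active in oocytes and embryos, the averaged log2 ratio was -0.89, 0.12, -1.16 and 0.028 in preparations 1 to 4. Preparations 1 and 3 were low and preparations 2 and 4 near 0. The mean was -0.47 ± 0.28 (SE, n = 4; limma adjusted p = 0.25), with a 95% interval of -1.11 to 0.16. Without preparation 3 the mean was -0.25. Its probes stood at -0.32 and -0.63 on average, a difference of 0.31, near the median of genes with 2 probes. The difference of rde-1 over ergo-1 was 0.23 (SD 0.41), less than its spread.

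Of the 4 germline Argonautes whose small RNAs act in the mitotic and meiotic germline, hrde-1 alone passed the threshold. The nuclear Argonaute gene hrde-1 (C16C10.3), needed for inherited silencing, had averaged log2 ratios of -1.37, -0.15, -1.61 and -1.55 in preparations 1 to 4. Preparation 2 stood apart near 0 and the other three were low. The mean was -1.17 ± 0.29 (SE, n = 4; SD 0.69), a 2.25-fold difference, with a 95% interval of -1.83 to -0.51 and a limma adjusted p of 0.0229.

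Both probes of hrde-1 passed singly, at -1.30 and -1.05 (adjusted p = 0.0235 and 0.0331 in limma). They differed by 0.044 to 0.10 in size in preparations 1, 2 and 4 and by 1.05 in preparation 3. The call was lost without preparation 1, 3 or 4 (limma adjusted p = 0.0755, 0.101 and 0.0819) and with housekeeping centring (0.0564). Without preparation 2 the mean was -1.51 and the adjusted p in limma 0.00825.

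The PIWI gene prg-1 (D2030.6) was at 0.15, 1.34, -0.49 and 0.51 in preparations 1 to 4. The values spread over both sides of 0, with preparation 2 highest. The mean was 0.38 ± 0.30 (SE, n = 4; limma adjusted p = 0.398), with a 95% interval of -0.32 to 1.08. Without preparation 2 the mean was 0.057 and without preparation 3 it was 0.67.

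The gene csr-1 (F20D12.1), the one Argonaute of the 10 known to be essential for fertility and chromosome segregation when lost alone, did not pass either. Its log2 ratio was -0.024, 0.57, -0.39 and 0.24 in preparations 1 to 4. The values scattered around 0 with a mean of 0.10 ± 0.23 (SE, n = 4; limma adjusted p = 0.788) and a 95% interval of -0.44 to 0.64, so a difference of more than 1 on the log2 scale lies outside the interval. Without preparation 2 its mean was -0.058.

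The germ granule Argonaute gene wago-1 (R06C7.1) varied the most of the 10. Its log2 ratio was 0.17, 1.16, -1.46 and -0.22 in preparations 1 to 4. Preparations 2 and 3 lay on opposite sides of 0, and the SD of 1.08 was larger than in 94.2% of named genes with values on 4 arrays. The mean was -0.086 ± 0.38 (SE, n = 4; limma adjusted p = 0.894), with a 95% interval of -0.97 to 0.80. Without preparation 3 the mean was 0.37 and without preparation 2 it was -0.50.

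The germline Argonautes kept different distances from one another. On every array hrde-1 was below prg-1, by 1.52, 1.49, 1.12 and 2.06 in preparations 1 to 4, with a mean of hrde-1 minus prg-1 of -1.55 (SD 0.39). It was below csr-1 on every array too, at a mean of -1.27 (SD 0.44). Against wago-1 it was also below on every array, at a mean of -1.09 (SD 0.63), but at only -0.16 in preparation 3. The pairs with csr-1 and wago-1 were set side by side after the values were seen. By contrast prg-1 and csr-1 differed by 0.28 (SD 0.36) and wago-1 and csr-1 by -0.18 (SD 0.73), both within their spread.

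Ordered by mean, the genes ran alg-3, alg-4, alg-1, prg-1, csr-1, wago-1, rde-1, ergo-1, alg-2 and hrde-1. Between neighbours, alg-3 and alg-4 differed by 1.03 (SD 0.33) and alg-4 and alg-1 by 0.66 (SD 0.61). The other 7 neighbouring pairs differed by less than the SD of their difference over arrays. The order within each of those pairs is not settled. The places of alg-4 in this order rest on the average of its unlike probes.

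Most of the 10 genes shared a pattern over the arrays. Their highest value was in preparation 2 for 8 genes, and their lowest in preparation 3 for 7. Over the 14385 named genes with values on all 4 arrays, 28% were highest in preparation 2 and 33.8% lowest in preparation 3. The exceptions were alg-1, highest in preparation 3, and alg-2, highest in preparation 4. The lowest value was in preparation 1 for alg-1 and alg-3 and in preparation 4 for alg-4. Single probes did not all follow the averages. Probe 2 of alg-4 was highest in preparation 2, but probe 1 was lowest there, at -0.63. Probe 1 of hrde-1 was lowest in preparation 3, but probe 2 in preparation 4, at -1.57, with preparation 3 at -1.09.

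General germline genes outside the Argonautes were also mostly highest in preparation 2 and lowest in preparation 3. Of the 34 general germline genes, 30 were highest in preparation 2 and 31 lowest in preparation 3, with medians of 0.043, 0.52, -0.62 and -0.11 in preparations 1 to 4. The oocyte genes were highest in preparation 2 for 30 of 32, and lowest in preparation 3 for 22 and in preparation 4 for 10. Sperm genes had another order: of 57, 36 were highest in preparation 2, 3 lowest in preparation 3 and 52 lowest in preparation 4. The part of germline content in the values of the Argonautes was not tested.

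These counts depend on the centring, which shifts all genes of an array by the same amount. Of 49 housekeeping genes, 46 were lowest in preparation 3, with medians of 0.23, 0.084, -0.57 and 0.38 in preparations 1 to 4. When each array was centred on these genes, 6 Argonautes were highest in preparation 2, 1 was lowest in preparation 3, 6 were lowest in preparation 1 and 3 in preparation 4. Over the 14385 named genes with values on all 4 arrays, 23.4% were highest in preparation 2 and 2.95% lowest in preparation 3 on that scale. Both backgrounds thus moved too. Of these 14385 genes, 3588 were lowest in preparation 1 and 6763 in preparation 4. On that scale prg-1 was at -0.093, 1.27, 0.079 and 0.13, so that preparation 2 alone stood out, and alg-2 was at -0.83, -0.75, -0.60 and -0.39, with an SD of 0.19 against 0.47. The value of alg-1 in preparation 3 became 1.52. Of the 34 general germline genes, 28 were highest in preparation 2 with that centring, 6 lowest in preparation 3 and 21 lowest in preparation 4.

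**Figure D3:**
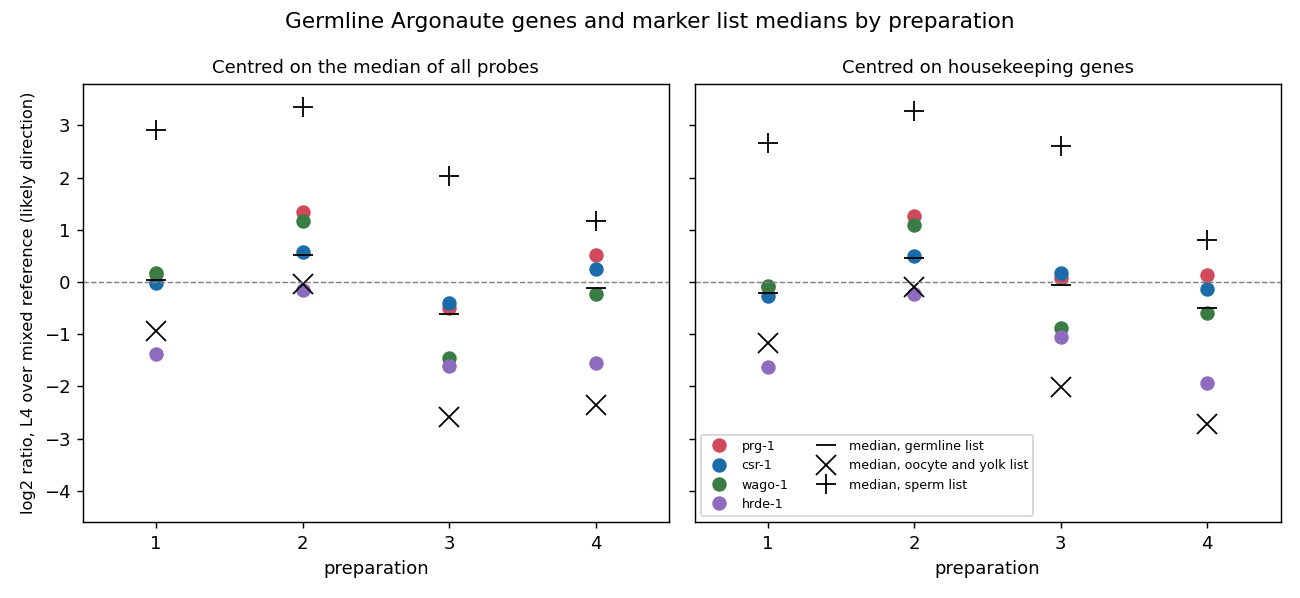
Log2 ratio of L4 over the mixed reference for prg-1, csr-1, wago-1 and hrde-1 in each preparation (coloured points) beside the medians of the germline, oocyte and sperm lists (black marks), centred on the median of all probes (left) or on housekeeping genes (right). Preparation 2 holds the highest value of all 4 genes in both panels, while in preparation 3 prg-1 is at -0.49 on the left and 0.079 on the right.

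The genes with the nearest values to each Argonaute were found by the root mean square difference in log2 ratio over the 4 arrays among 14384 other named genes. Nearest to alg-3 were cpb-2, which encodes a cytoplasmic polyadenylation element binding protein, at a distance of 0.19, and the genes F37A4.5 (0.21) and Y116A8C.38 (0.22). Nearest to prg-1 were cin-4 (0.071), the germ granule helicase gene glh-2 (0.11) and the Pumilio family gene fbf-2 (0.12), the last 2 being members of the germline list. These distances describe 4 arrays only.

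Nearest to wago-1 was the linker histone gene hil-5 (0.10), which also ran from 1.17 in preparation 2 to -1.49 in preparation 3, and then T07C4.3 and F56C9.6. Nearest to hrde-1 were flh-1 (0.15), the caudal homologue pal-1 (0.24) and C44B9.3 (0.25). For csr-1 they were usp-39, gen-1 and W04A4.6 (0.042 to 0.063), for rde-1 zyg-1, iscu-1 and B0285.3 (0.038 to 0.053), and for ergo-1 Y53G8AM.8, swsn-7 and lmd-3 (0.12 to 0.13). The microRNA gene alg-1 was nearest to C51E3.8, srr-1 and the heterochronic gene lin-29 (0.10 to 0.11), and alg-2 to T10E9.5, the histone gene his-42 and F01G4.6 (0.051 to 0.071). Nearest to the average of alg-4 were C18H7.7, swt-7 and F54H12.5 (0.081 to 0.088), which describe that average and neither of its probes.

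Of 10 further Argonaute genes tested, 1 was higher and 1 lower. The gene wago-10 was at 1.76, 2.74, 0.57 and 2.04 in preparations 1 to 4. All 4 values were above 0, the lowest in preparation 3. Its mean was 1.78 ± 0.34 (SE, n = 4), a 3.42-fold difference with a limma adjusted p of 0.0085. The gene vsra-1 was at -1.04, -0.69, -1.40 and -0.73, lower on all 4 arrays, with a mean of -0.97 ± 0.22 and a limma adjusted p of 0.0177. That call was lost without preparation 1 or 3 (limma adjusted p = 0.0859 and 0.0592). The median of the 10 further Argonautes was 0.41, beside 0.0065 for the 10 described above.

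Few of the genes that work with Argonautes were called. Calls were also few among 34 general germline genes, 1 higher and 0 lower, and 49 housekeeping genes, 0 in either direction. The sperm and oocyte lists had more, 54 of 60 higher and 14 of 33 lower. Over the 6 lists of other small RNA genes, the further Argonautes included, 3 of 84 genes were higher and 2 lower, or 5.95% in all, against 23.1% of all named genes. The median of their means was -0.12. Without preparation 2 or 4, or with housekeeping centring, 1 gene was higher, and without preparation 1 or 3, 1 was lower. With arrays scaled to equal spread, 5 were lower. The calls of wago-10 and elli-1 held in each of these settings.

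Of 16 genes of microRNA processing and silencing, 1 was higher and 0 lower, with a median of -0.14. The Tudor nuclease gene tsn-1 was at 0.55, 0.89, 0.85 and 1.64 in preparations 1 to 4, above 0 on all arrays, with a mean of 0.98 ± 0.24 (SE, n = 4) and a limma adjusted p of 0.0238. That call was lost without preparation 2, 3 or 4 (limma adjusted p = 0.0564, 0.0685 and 0.0761) and with housekeeping centring (0.0705). The largest of those that did not pass were lin-41, a microRNA target that also stands in the oocyte list, at -1.11 (limma adjusted p = 0.0992; -0.65 without preparation 3), and ain-1, which encodes a partner of ALG-1 and ALG-2, at -0.80 (0.0624). Without preparation 4, ain-1 was at -1.09 and passed (limma adjusted p = 0.024).

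None of 18 genes of double-stranded RNA entry, foreign RNA silencing and the ERI complex passed in limma, and the list median was -0.06. An unadjusted limma p under 0.05 was found for 5750 of all 14901 named genes and for 2 of these 18. The largest were rde-8, an endonuclease gene, at -0.91 (limma adjusted p = 0.0632) and the helicase gene eri-7 at -0.57 (0.101). With arrays scaled to equal spread, rde-8 passed at -0.87 (limma adjusted p = 0.0381), and without preparation 3, where it was at -1.95, its mean was -0.56 (limma adjusted p = 0.15).

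Of 14 genes listed with the RNA-dependent RNA polymerases and mutator proteins of the secondary small RNAs, 0 were higher and 1 lower. The list median was 0.045. The germline gene elli-1 was at -1.62, -1.78, -1.06 and -0.93 in preparations 1 to 4, lower on all arrays, with a mean of -1.35 ± 0.23 (SE, n = 4) and a limma adjusted p of 0.00589. Next in size, and not past the threshold, were cid-1 at 0.75 and the polymerase gene rrf-2 at -0.73 (limma adjusted p = 0.0577 and 0.0526). The rrf-2 call depended on small changes, with adjusted p of 0.0411 in limma for values as deposited, 0.0425 for scaled arrays and 0.0487 when a value on all 4 arrays was needed.

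None of 13 piRNA genes passed in limma, and their median was -0.09. Beside the 5750 of all 14901 named genes with an unadjusted limma p under 0.05, this list held 1. The largest was tost-1, which encodes an alternative subunit of the complex that processes piRNA precursors, at -0.99 (limma adjusted p = 0.0569). It passed with scaled arrays, at -0.96, and without preparation 2, at -1.24 (limma adjusted p = 0.0376 and 0.0431). Without preparation 3 it was at -0.63 and without preparation 4 at -0.95, neither past the threshold (limma adjusted p = 0.153 and 0.141). The next was simr-1, at -0.56, and at -0.24 without preparation 3 or -0.91 without preparation 2. The median of the list in preparation 2 was 0.62 and in preparation 3 it was -0.46. The medians of the other small RNA lists were also highest in preparation 2 and lowest in preparation 3, as was prg-1.

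Of 13 nuclear silencing genes, 1 was higher and 0 lower, with a median of -0.26. The gene nrde-2, which encodes a nuclear factor that acts with nuclear Argonautes, was at 0.87, 1.15, 0.45 and 1.18 in preparations 1 to 4, while hrde-1 was below 0 on the same arrays. Its mean was 0.91 ± 0.22 (SE, n = 4; limma adjusted p = 0.0226). That call was lost without preparation 1, 2 or 4 (limma adjusted p = 0.0905, 0.0723 and 0.0744) and with housekeeping centring (0.0563). The largest others were mes-3 at -0.56 and mrg-1 at -0.45, neither past the threshold (limma adjusted p = 0.0887 and 0.198).

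**Figure D4:**
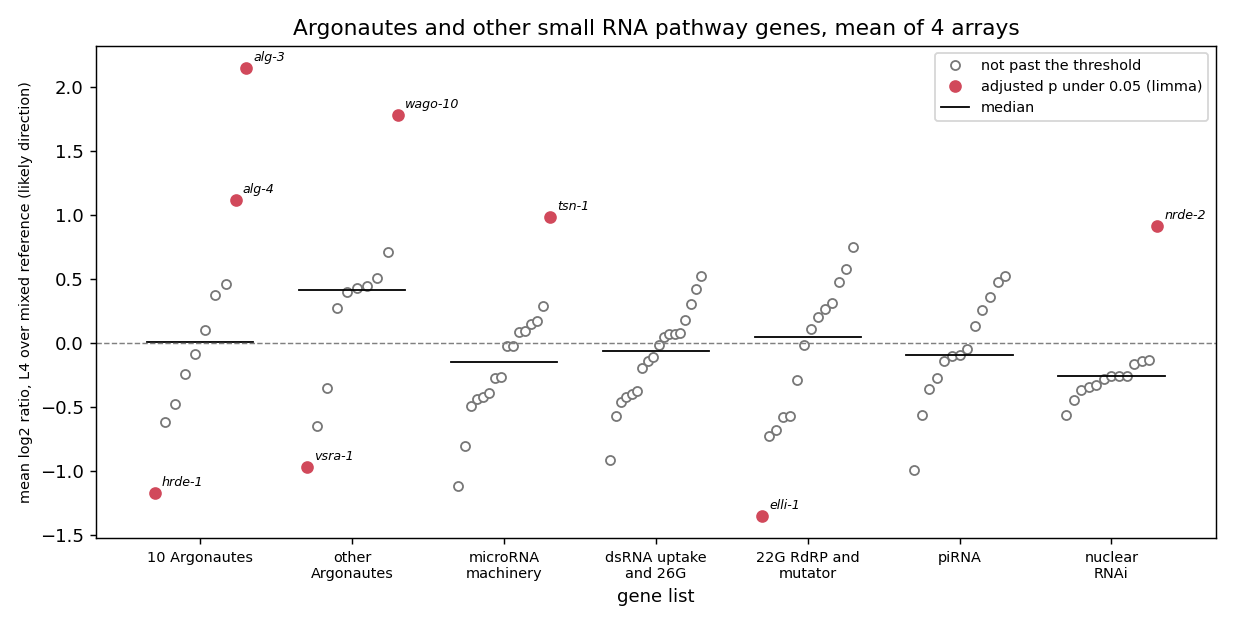
Mean log2 ratio over 4 arrays of L4 over the mixed reference for the 10 Argonaute genes and for 6 lists of other small RNA genes, with filled points for genes past the threshold in limma and a line at each list's median. The filled points are 3 among the 10 Argonautes and 5 among the 84 other genes.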

How the data were processed

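The authors deposited 1 log2 value per probe and array, and neither their scanner processing nor their normalization is given in the sources used here. The log2 unit of the deposited values was inferred, since undoing a base 2 logarithm turned 100% of the values below 0 into multiples of 0.001 (tolerance 0.02 steps). As deposited, the medians of preparations 1 to 4 were -0.047, 0.0072, -0.1 and -0.042. Neither centring by the authors nor the ratio's direction is stated. Array medians were subtracted here. Probes naming 1 gene in the platform annotation (16450) were averaged per gene, the other probes stayed separate, and a value on at least 3 arrays was needed. Two-sided tests of the mean against 0 used limma 3.58.1 in R 4.3.3, with Benjamini-Hochberg adjustment over 19911 features, after a test on simulated data. The reference counts as 1 sample and its spread is left out. SE is limma's moderated one. If preparations share a culture, p-values measure technical spread.

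The members and lists were chosen with earlier results of these data known. All members are named. From each list came up to 8 genes past the threshold with the largest means, and where fewer than 2 passed, the 2 largest others. The 3 nearest genes per member were named. Python 3.11.15 with pandas 2.3.3 and matplotlib 3.10.9 made tables and plots. The number of arrays limits the precision. No probe or protein sequences were used here.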

Additional observations from a re-analysis of the deposited data

Results flagged for a closer look

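Within the 4 values of a gene, 1 array stood apart from the rest for 2 of 27 sets of values examined. Chance sets apart about 1 in 20 such sets. For hrde-1 the gap between preparation 2, at -0.15, and the nearest other array, at -1.37, was 0.835 of the whole range. For ain-1 the gap between preparation 4, at 0.044, and the nearest other array, at -1.04, was 0.932 of the range, with the other three between -1.11 and -1.04.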

How the results depend on the processing

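The call of alg-3 held under all 9 alternatives, and the means of alg-1, alg-2, rde-1, ergo-1 and prg-1 kept their sign and stayed short of the threshold under them, although rde-1 moved to -0.072 and ergo-1 to -0.25 without preparation 3. With housekeeping centring, 2535 features were called in place of 4319, 1 Argonaute was higher and 0 lower, and 1 of the other small RNA genes was higher. With scaled arrays 5 of those genes were lower. Leaving out each preparation gave 2311 (without preparation 3) to 3633 calls, 2 Argonautes higher, 0 to 1 lower, and 1 to 2 other small RNA genes higher and 1 to 3 lower. The sign turned for csr-1 without preparation 2 (-0.058; range over preparations -0.058 to 0.26), for wago-1 without preparation 3 (0.37; range -0.50 to 0.37) and for alg-4 on probe 1 alone (-0.28). The cause was not tested. Each log ratio already paired the channels of an array, and no pairing between arrays was possible because the samples form a single group. Signal over background is unknown, since the deposited values hold no intensities.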
